A study of Mus musculus with 12 samples.

Results

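Nnt encodes nicotinamide nucleotide transhydrogenase of the inner mitochondrial membrane. It is described here with 8 genes that make, carry or spend reducing power in mitochondria: Idh2, Nadk2, Gsr, Glrx2, Gpx1, Txnrd2, Prdx3 and Sod2. These 9 genes were taken by symbol from the 55341 gene symbols of a gene count table, and rows that share a symbol were summed; only Nnt had more than 1 row. The group was selected on the measured level of Nnt in these libraries, and the 8 others belong to it by their roles. The table holds 12 total RNA libraries, 3 for each of 4 combinations of tissue (brain or liver) and genotype (wild type or vaultrc5-/-). All mice were males of 7 to 9 weeks, and vaultrc5-/- mice lack Vaultrc5, which encodes a vault RNA, a short RNA of the vault particle. The sample titles call the wild-type libraries flx. The strain, the construction of the knockout allele, and whether brain and liver libraries with the same number came from 1 mouse are not given in the labels used here. Nothing in the labels says that the 3 libraries of a group came from separate mice, so p-values measure the spread between these libraries.

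Reduced NADP (NADPH) is the electron donor for removal of peroxides in the mitochondrial matrix. The transhydrogenase Nnt makes it from NADH at the expense of the proton gradient, the isocitrate dehydrogenase Idh2 makes it from isocitrate, and the kinase Nadk2 makes the NADP that both enzymes reduce. NADPH is spent by glutathione reductase (Gsr), which keeps glutathione reduced for the glutathione peroxidase Gpx1 and the glutaredoxin Glrx2, and by thioredoxin reductase (Txnrd2), which supplies the peroxiredoxin Prdx3 through mitochondrial thioredoxin. The superoxide dismutase Sod2 makes hydrogen peroxide, the substrate of Gpx1 and Prdx3, from superoxide. Gsr and Gpx1 proteins are found in the cytosol as well as in mitochondria. Mice of the widely used C57BL/6J strain are known for a deletion of several exons within Nnt that many other strains do not carry. The mouse reference genome is that of C57BL/6J, so exons that this strain lacks are not part of the reference gene models.

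Nnt was annotated as a pair of overlapping entries on the minus strand of chromosome 13 (GENCODE release M21, GRCm38). ENSMUSG00000025453 runs from 119335448 to 119408997 and ENSMUSG00000116207 from 119335528 to 119408952, and both are protein-coding. The transcript Nnt-206 of 3339 bases lies whole within Nnt-202 of 3464 bases, both have 17 exons, and their coding sequences of 2505 bases are identical. The sequence across the join of exons 6 and 7 is shown because it is found in 4 of the 6 annotated Nnt transcripts, in both entries, so that a read over it cannot be given to 1 entry. Lower case is exon 6 (its last 30 bases, chr13:119386579-119386608) and capitals are exon 7 (its first 30 bases, chr13:119381834-119381863), 5′ to 3′ on the transcript.
Nnt exon 6 and 7 junction: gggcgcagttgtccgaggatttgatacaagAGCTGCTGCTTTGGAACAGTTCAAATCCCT
Counts of both entries were fractional in all 12 libraries, while their sum was a whole number in 12 of 12 (within 0.015 of a count). The first entry took from 37.7% to 88.5% of the sum. For this reason the sum is used below.

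A second pair of sequences is shown because Gpx1 and Txnrd2 are selenoproteins, whose active site rests on a TGA codon read as selenocysteine and not as a stop. Capitals mark that codon in 1 annotated transcript of each gene, both on the plus strand. In Gpx1 it is codon 47 of 201 (chromosome 9, 108339451 to 108339453), early in the coding sequence, and in Txnrd2 it is codon 526 of 527 (chromosome 16, 18477772 to 18477774), next to the end.
Gpx1 selenocysteine codon: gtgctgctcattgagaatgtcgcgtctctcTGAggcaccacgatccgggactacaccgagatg
Txnrd2 selenocysteine codon: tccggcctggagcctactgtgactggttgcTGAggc
The count table holds 1 value per gene, so it shows neither which exons of Nnt were read nor how these codons were translated.

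Vaultrc5 counts followed the labels. They were 4, 1 and 4 in wild-type brain, 33, 39 and 48 in wild-type liver and 0 in all 6 knockout libraries. The brain libraries held 14844971 to 18567381 counts each and the liver libraries 23247449 to 27155480. The summed level of 3 neuronal markers was 3154 to 4242 CPM (counts relative to library size) in brain and 19.3 to 26.2 in liver, and that of 3 hepatocyte markers was 37671 to 64216 CPM in liver and 0.116 to 2.28 in brain. CPM are scaled by TMM (trimmed mean of M-values) within a tissue. In both tissues, the wild-type libraries numbered 2 and 3 stood apart from the other 4 in their Nnt level. Knockout comparisons are given with and without them, and what sets them apart was not tested. Without them the wild-type arm holds 1 library, which the fit takes to vary like the knockout libraries, and that library was left by its Nnt level.

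Nnt differed more between the wild-type libraries than the group means of wild type and knockout did. In brain, Nnt was at 14.7, 28.2 and 32.6 CPM in wild-type libraries 1, 2 and 3 and at 15.04, 19.7 and 14.2 CPM in knockout libraries 1, 2 and 3. The counts behind these levels were 249, 514 and 560 in wild-type libraries against 229, 334 and 231 in the knockout. Wild-type library 1 lay among the knockout libraries and the other wild-type libraries lay above all of them, so the groups overlapped. In liver the levels were 33.6, 66.5 and 118 CPM in wild-type libraries against 33.4, 30.7 and 39.0 CPM in the knockout, from 802, 1793 and 3022 counts and from 877, 725 and 919 counts. The order of the wild-type libraries was the same as in brain, and library 1 again lay within the knockout range.

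**Figure D1:**
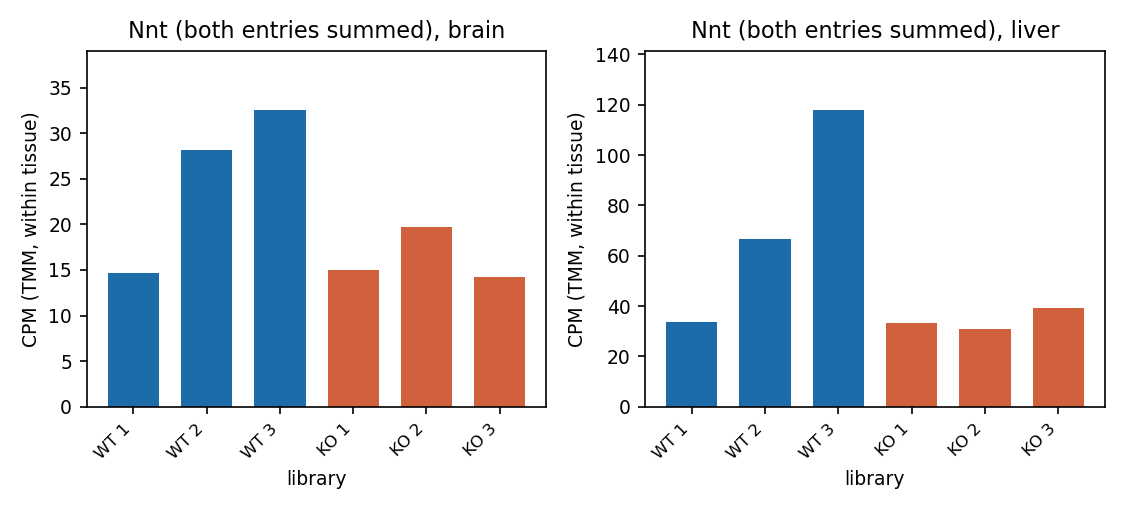
Nnt level, both entries summed, in each of 3 wild-type (WT, blue) and 3 knockout (KO, orange) libraries of brain (left) and liver (right), in CPM with TMM scaling within a tissue; a bar is 1 library and has no error. Wild-type libraries 2 and 3 are the highest bars in both tissues (28.2 and 32.6 CPM in brain, 66.5 and 118 CPM in liver), and wild-type library 1 (14.7 and 33.6 CPM) is at the height of the knockout bars.

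Relative to wild-type library 1, Nnt in library 2 was 1.92-fold higher in brain and 1.98-fold higher in liver. In library 3 it was 2.21-fold higher in brain and 3.51-fold higher in liver. Wild-type library 1 itself was at 0.903 times the knockout mean in brain and 0.977 times in liver. The group means were 25.2 ± 9.30 CPM (SD, n = 3) in wild-type and 16.3 ± 2.95 CPM (SD, n = 3) in knockout brain, and 72.6 ± 42.5 CPM (SD, n = 3) in wild-type and 34.4 ± 4.27 CPM (SD, n = 3) in knockout liver. As a coefficient of variation the wild-type spread was 37.0% in brain and 58.5% in liver, against 18.1% and 12.4% in the knockout. The wild-type groups were thus the more variable ones in both tissues.

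Nnt was among the genes examined because of these levels, so its knockout difference is a description without a test. The fitted log2 fold change of knockout over wild type was -0.63 in brain and -1.07 in liver. The labels used here give neither the strain nor the Nnt genotype of any mouse, and the part of either, or of Vaultrc5 loss, in these values was not tested. Without wild-type libraries 2 and 3 it was 0.15 in brain and 0.03 in liver, values that set wild-type library 1 alone against the knockout and so restate its ratio to the knockout mean. Leaving out 1 library at a time gave -0.90 to -0.40 in brain and -1.41 to -0.53 in liver. With the entry ENSMUSG00000025453 alone it was -0.82 in brain and -1.66 in liver. Over all 6 libraries of a tissue, the highest Nnt level was 2.29 times the lowest in brain and 3.84 times in liver. The SD of log2(CPM + 1) was larger for Nnt than for 93.6% of 18053 genes tested in brain and 98.6% of 15313 in liver.

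The division between the entries followed the sum in liver more than in brain. In brain the first entry, ENSMUSG00000025453, held 88.5%, 47.3% and 86.5% of the Nnt count in wild-type libraries 1, 2 and 3 and 76.6%, 42.5% and 78.1% in the knockout. In liver it held 51.1%, 63.9% and 73.6% in wild-type libraries against 55.9%, 37.7% and 40.2% in the knockout. In brain the low shares were those of the libraries numbered 2 in either genotype. In liver the first entry's share was highest in the libraries with the highest Nnt sums, wild-type libraries 3 and 2, and lowest in knockout library 2, which had the lowest sum.

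Depth and markers of cell types are given beside the Nnt pattern, and their part in it was not tested. Wild-type library 2 was the deepest library of its tissue in both brain and liver, while library 3 was at rank 3 in brain and rank 4 in liver. The summed level of 3 oligodendrocyte markers in brain was lowest in wild-type library 2 (1646 CPM) and highest in library 3 (5828 CPM). Of knockout over wild type in brain, all 3 oligodendrocyte and all 3 astrocyte markers had a fitted log2 fold change below 0 (medians -0.58 and -0.45), none of them called. The summed level of 3 microglia markers was 41.8, 67.2 and 62.2 CPM in wild-type brain libraries 1, 2 and 3 and 45.4, 68.5 and 56.5 CPM in the knockout, so it was lowest in wild-type library 1. In liver the 3 hepatocyte markers summed to 57370, 48359 and 62868 CPM in wild-type libraries 1, 2 and 3 and to 45820, 37671 and 64216 CPM in the knockout. In bulk tissue, fewer cells of a type and less RNA per cell cannot be told apart.

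Levels of the genes around Nnt were compared with it. Of 25 protein-coding genes within 1000000 bases on either side, 10 were tested in at least 1 tissue and 7 in both, and edgeR's quasi-likelihood test called 0 of the 10 in either knockout comparison (0% of all genes tested). Paip1, the nearest of those tested, which encodes a poly(A)-binding protein partner, was at 54.1 to 60.3 CPM in brain and 36.7 to 44.4 CPM in liver. Its correlation with Nnt over 6 libraries was -0.25 in brain and 0.94 in liver, and 0.59 over all 12. Hmgcs1, an enzyme of cholesterol synthesis, had a correlation of 0.93 in brain and -0.46 in liver. Zfp131 (0.34 in brain and 0.48 in liver) and Tmem267 (0.13 and 0.28) had positive values in both tissues, and the 3 others tested in both had values of opposite sign.

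Genes whose levels followed Nnt over libraries were found by Pearson's r of log2(CPM + 1), each tissue centred on its own mean, over 12 libraries and 13667 genes tested in both tissues. The 5 most alike were Cope (r = 0.93), Alg2 (0.90), Prkar1a (0.89), Peli3 (0.89) and Psma3 (0.88). Their levels moved less than that of Nnt. The highest library was 1.15 to 1.21 times the lowest in brain and 1.22 to 1.92 times in liver, against 2.29 and 3.84 times for Nnt. Cope, a subunit of the COPI vesicle coat, ran from 39.3 to 45.3 CPM in brain and from 53.7 to 65.3 CPM in liver, a highest library 1.153 and 1.217 times the lowest. Alg2, a mannosyltransferase of N-glycan assembly, ran from 73.0 to 88.2 CPM in brain and from 9.93 to 19.1 CPM in liver. The 3 most opposed were Acvr2b (-0.88), an activin receptor, Abhd1 (-0.88) and Entpd4 (-0.87), a nucleotide-hydrolysing enzyme of intracellular membranes. Of these 8 genes, 4 were again named with a pseudocount of 0.1 CPM, and 4 with Spearman's rho. These values describe these 12 libraries, and the part of depth in them was not tested.

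Among the other 8 redox genes no level followed Nnt closely. Their r over 12 libraries was 0.40 for Nadk2, 0.37 for Idh2, 0.27 for Txnrd2, 0.20 for Gpx1, 0.17 for Glrx2, 0.11 for Prdx3, -0.06 for Gsr and -0.08 for Sod2. Within a tissue, Sod2 had an r of 0.67 in brain and -0.89 in liver, and Gpx1 0.84 and -0.15.

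Entpd4 lies on chromosome 14 (69337174 to 69367270, plus strand) beside a copy, Entpd4b (69555424 to 69585520), and the gene model Gm16867 (69363504 to 69503362, minus strand) overlaps an exon of Entpd4 on the other strand. Entpd4b and Gm16867 were picked after their values were seen. Gm16867 was at or near 0 in the wild-type libraries numbered 2 and 3 of both tissues, the same libraries that were high in Nnt. In brain its expected counts were 124, 0 and 0.03 in wild-type libraries 1, 2 and 3 and 122, 165 and 295 in the knockout. In liver they were 105, 0 and 1.19 in wild-type libraries against 137, 143 and 258 in the knockout. The 4 low values are under the floor of 3 counts, below which no fold is given, and the 8 others are all above 100 counts.

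Entpd4 was lowest in the same libraries, but by less. It was at 47.1, 34.0 and 34.4 CPM in wild-type brain and at 43.9, 46.3 and 61.2 CPM in knockout brain. In liver it was at 20.9, 15.8 and 14.8 CPM in the wild type and at 25.9, 26.4 and 27.1 CPM in the knockout. Entpd4b was at 34.1, 22.1 and 24.6 CPM in wild-type and at 33.8, 32.8 and 39.5 CPM in knockout brain, and at 15.1, 12.0 and 11.0 CPM in wild-type and 15.6, 16.4 and 19.4 CPM in knockout liver. In brain, wild-type library 1 was nearer to the knockout libraries than to the other wild-type libraries in these genes. They were picked by their levels in these same libraries, so this likeness follows from the choice and is no separate evidence. In liver, Entpd4 in wild-type library 1 lay between the other wild-type libraries and the knockout. The exon lengths of Entpd4 and Entpd4b are equal (8074 bases) and their counts were fractional in all 12 libraries, so the division of reads between the copies is uncertain. Whether counting used strand is not given in the sources used here, so reads of Gm16867 and of Entpd4 may not be told apart where they overlap.

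**Figure D2:**
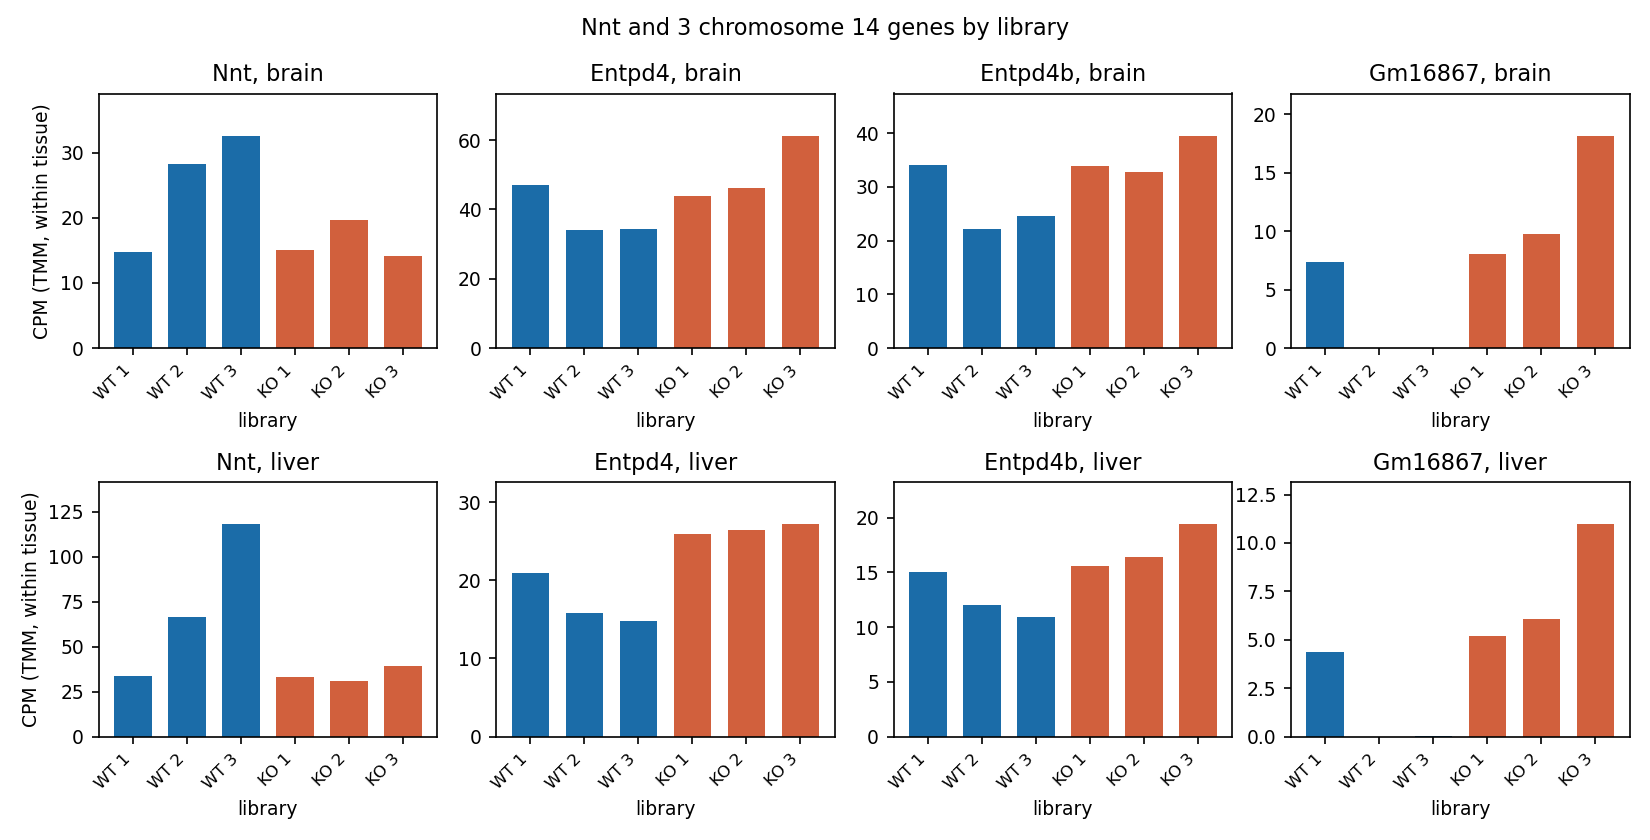
CPM (TMM within a tissue) of Nnt and of the chromosome 14 genes Entpd4, Entpd4b and Gm16867 in each library of brain (top) and liver (bottom), with wild type (WT) in blue and knockout (KO) in orange; a bar is 1 library and each panel has its own axis from 0. The wild-type libraries 2 and 3 are the highest for Nnt, the lowest for Entpd4 and Entpd4b, and at or near 0 for Gm16867 in both tissues.

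None of the 8 other redox genes was called between knockout and wild type, in either tissue. In brain, edgeR's quasi-likelihood test called 0 of 8, as it called 0 of 18053 genes (0%), and 0 of the 8 had an unadjusted p under 0.05, against 121 of all genes. In liver it called 0 of 8 and 0 of 15313 genes (0%). An unadjusted p under 0.05 was found for 1 of the 8 (Txnrd2) and for 535 of all genes. With the replicate block these were Txnrd2 and Idh2, and 981 of all genes. Vaultrc5 fell from 33, 39 and 48 counts in wild-type liver to 0 in the knockout. Without the block, edgeR did not call it either, so an absence of calls is not evidence that a gene is unchanged. DESeq2's Wald test called 0 genes in brain and 10 in liver, with 0 of the 8 among them in either tissue. With replicate number added as a blocking term, edgeR called 2 genes in liver (0.0131%), again with 0 of the 8. Without wild-type libraries 2 and 3, which leaves 1 wild-type library, 0 of the 8 were called in either tissue. The median log2 fold change of the 8 was -0.05 in brain and -0.04 in liver, beside -0.01 and 0.00 over all genes tested.

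Idh2, which makes NADPH, and Nadk2, which makes NADP, had lower means in knockout than in wild-type liver, and neither difference passed the test. Idh2 was at 61.7, 51.1 and 73.1 CPM in wild-type liver and at 51.2, 45.9 and 66.0 CPM in knockout liver. Its groups overlapped, and library 3 was the highest and library 2 the lowest of either genotype. The log2 fold change was -0.18 ± 0.17 (SE, adjusted p = 0.991, edgeR), and it ran from -0.34 to -0.05 with 1 library left out at a time. With the replicate block the log2 fold change of Idh2 was -0.18 ± 0.07 (SE, edgeR unadjusted p = 0.0413, adjusted p = 0.759). Nadk2 was at 151, 144 and 142 CPM in wild-type liver and at 133, 118 and 137 CPM in knockout liver. Its groups did not overlap, and the log2 fold change was -0.16 ± 0.09 (SE, adjusted p = 0.991, edgeR). With the replicate block it was -0.16 ± 0.09 (SE, edgeR unadjusted p = 0.103, adjusted p = 0.810). In brain Idh2 ran from 16.2 to 19.2 CPM, with a log2 fold change of -0.05 ± 0.11 (SE). Nadk2 in brain was at 33.6, 29.6 and 39.4 CPM in the wild type and at 31.6, 28.9 and 29.1 CPM in the knockout, an overlapping pair of groups with a log2 fold change of -0.20 ± 0.12 (SE, adjusted p = 1.00, edgeR). With 1 library left out at a time that value ran from -0.28 to -0.08.

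Txnrd2, the mitochondrial thioredoxin reductase, had the largest fitted difference of the 8 in liver, and it did not pass the adjusted threshold. It was at 18.7, 17.5 and 16.7 CPM in wild-type liver and at 12.2, 11.9 and 16.6 CPM in knockout liver. The groups did not overlap, but knockout library 3 lay just under the lowest wild-type library. The log2 fold change was -0.37 ± 0.14 (SE, adjusted p = 0.991, edgeR), and it ran from -0.54 to -0.29 when 1 library was left out at a time. With the replicate block it was -0.38 ± 0.14 (SE, edgeR unadjusted p = 0.0240, adjusted p = 0.752). Txnrd2 and Nadk2 were the 2 of 8 whose liver groups did not overlap, both lower in the knockout; of all genes tested in liver, 9.91% had groups that did not overlap and 5.59% had all knockout libraries below the wild type. In brain Txnrd2 was at 7.39, 7.41 and 6.86 CPM in the wild type and at 5.97, 5.42 and 8.43 CPM in the knockout, where knockout library 3 was the highest of the 6. In brain 0 of the 8 genes had groups that did not overlap, against 4.2% of all genes tested (2.43% with all knockout libraries below the wild type).

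Cell type markers moved beside these liver values without being called, and their part in them was not tested. All 3 hepatocyte markers had a fitted log2 fold change below 0 (median -0.19), and all 3 markers each of Kupffer cells, cholangiocytes, blood cells, microglia and endothelium had one above 0 (medians 0.52, 0.30, 0.54, 1.04 and 0.11). Of these, 1 blood cell, 1 microglia and 1 endothelium marker had an unadjusted p under 0.05 (edgeR). The microglia markers were chosen for a cell type of brain and were low in liver. They summed to 1.64 to 2.11 CPM in the wild type and 2.34 to 5.67 CPM in the knockout, highest in knockout library 2. Knockout library 2, the lowest for Idh2, Nadk2 and Txnrd2, had the lowest hepatocyte sum (37671 CPM) and the highest Kupffer cell sum (236 CPM, against 90.1 to 123 CPM in the 5 others).

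Prdx3, which removes hydrogen peroxide in the matrix, was steady across libraries. It ran from 18.6 CPM (knockout library 3) to 23.7 CPM in brain and from 44.6 to 51.9 CPM in liver. Its log2 fold change was -0.06 ± 0.12 (SE) in brain and -0.08 ± 0.09 (SE) in liver.

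The glutathione branch showed no difference by genotype that passed the test. Gsr was among the steadiest genes in liver, from 74.9 to 82.3 CPM over the 6 libraries, an SD of log2(CPM + 1) larger than that of only 1.67% of genes tested. In brain Gsr ran from 20.9 to 28.3 CPM. Its log2 fold change was 0.04 ± 0.14 (SE) in brain and -0.01 ± 0.08 (SE) in liver. Glrx2, which uses glutathione to reverse protein thiol modification, was the most variable of the 8 in liver. It was at 9.92, 19.6 and 13.3 CPM in wild-type liver and at 14.7, 13.6 and 17.2 CPM in knockout liver, so that the wild-type group held both the highest and the lowest library. In brain it was at 43.05, 60.8 and 42.7 CPM in the wild type and at 49.8, 51.6 and 54.0 CPM in the knockout. The libraries numbered 2 were thus the highest wild-type libraries in both tissues. The log2 fold change was 0.08 ± 0.15 (SE) in brain and 0.10 ± 0.24 (SE) in liver.

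Gpx1, whose product reduces hydrogen peroxide and lipid hydroperoxides, differed little between genotypes. It was at 753, 731 and 731 CPM in wild-type liver and at 826, 767 and 613 CPM in knockout liver. The wild-type libraries lay close together inside the wider knockout range, and the log2 fold change was 0.00 ± 0.14 (SE). In brain Gpx1 was at 18.5, 23.7 and 21.5 CPM in the wild type and at 19.7, 20.0 and 19.5 CPM in the knockout, where now the wild type had the wider range. The log2 fold change there was -0.11 ± 0.12 (SE).

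Sod2, the manganese superoxide dismutase of the matrix, was the steadiest of the 8 in both tissues. It was at 249, 268 and 265 CPM in wild-type brain and at 246, 279 and 249 CPM in knockout brain. In liver it was at 196, 185 and 178 CPM in the wild type and at 190, 189 and 188 CPM in the knockout. The log2 fold change was -0.02 ± 0.09 (SE) in brain and 0.03 ± 0.09 (SE) in liver. Counts of Sod2 were fractional in all 12 libraries, so some of its reads were shared with another gene. Over the 8 genes, the adjusted p (edgeR) was 1.00 for each in brain and 0.991 to 0.999 in liver.

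**Figure D3:**
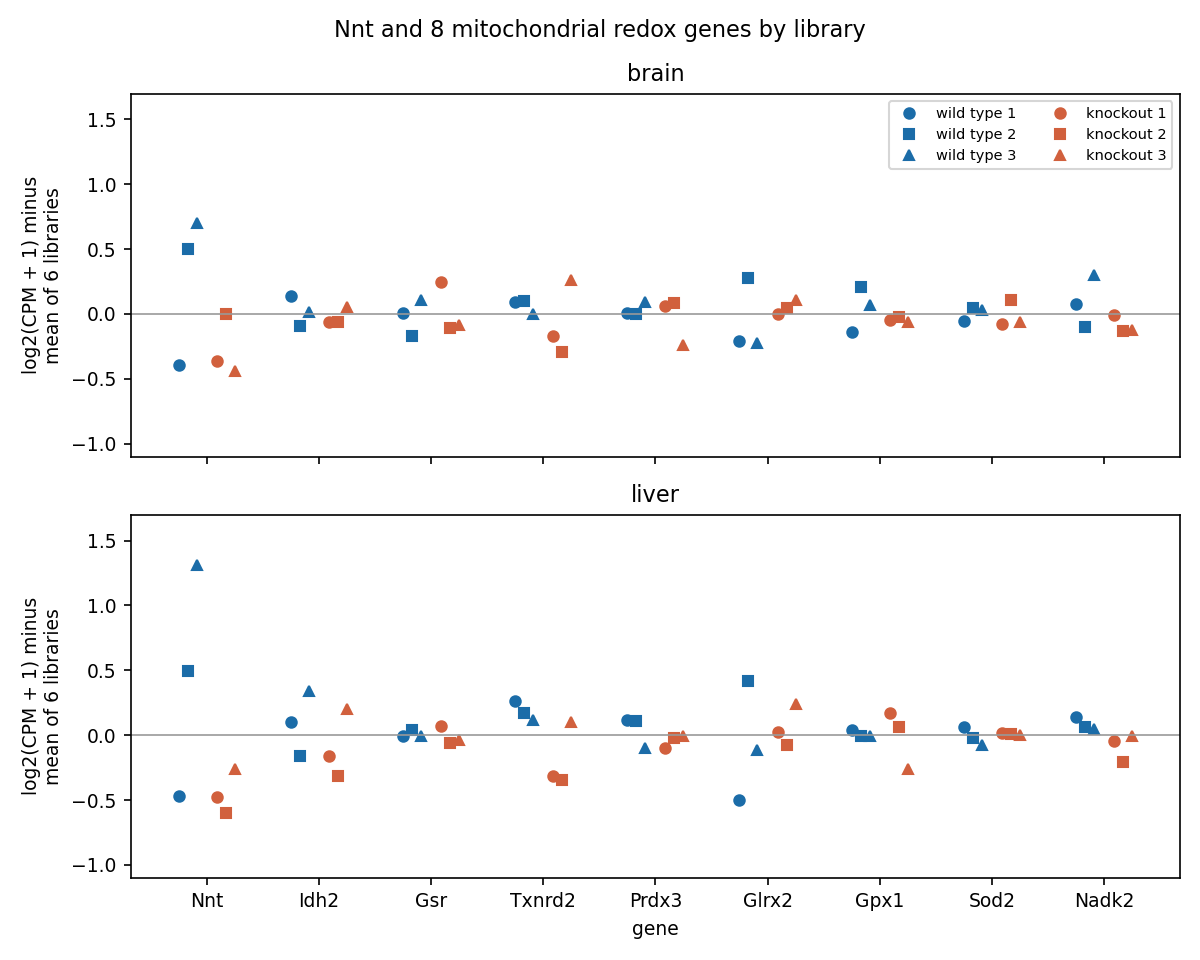
Level of Nnt and the 8 other genes in each library as log2(CPM + 1) minus the mean of the 6 libraries of the tissue, brain above and liver below; blue marks wild type, orange knockout, and the marker shape the library number. Nnt in wild-type libraries 2 and 3 stands above the rest in both tissues, and the other genes lie within about 0.5 of 0.

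**Figure D4:**
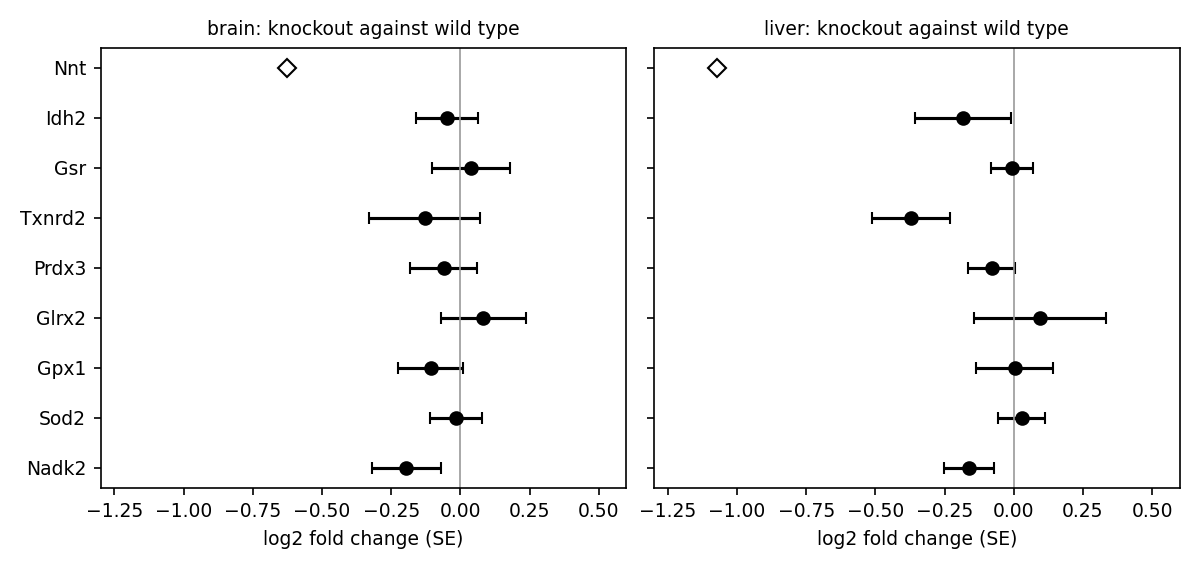
Fitted log2 fold change of knockout over wild type in brain (left) and liver (right) for each gene; circles carry the standard error of edgeR's fit over 3 and 3 libraries, and the open diamond for Nnt has no error because it is not tested. Nnt lies at -0.63 and -1.07, and the 8 tested genes lie between -0.37 and 0.10, with Txnrd2 in liver the lowest.

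The knockout difference itself was compared between the tissues in 1 fit over 12 libraries. None of the 8 genes was called (0 of 20115 genes, 0%, by edgeR; 491 of all genes and 0 of the 8 had an unadjusted p under 0.05; DESeq2's Wald test called 1 gene and 0 of the 8). The fit with the replicate block called 2 genes, with 0 of the 8. For Nnt the liver difference was lower than the brain difference by a fitted log2 value of -0.47, given without a test; with 1 library left out it ran from -0.81 to 0.07, the last without wild-type liver library 3.

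Brain and liver differed in all 8 genes, in the wild type and in the knockout alike. In the wild type, 8 of 8 were called by edgeR's quasi-likelihood test, 1 higher in brain and 7 higher in liver, beside 78.7% of 18828 genes tested (43.9% higher in brain and 34.7% higher in liver). In the knockout, 8 of 8 were called with the same 1 and 7, beside 78.8% of 18763 genes (43.6% and 35.2%). A call between these tissues is therefore the usual outcome, and the sizes carry more information. The median log2 fold change of brain over liver in the wild type was -2.36 for the 8 genes and 0.21 for all genes tested. In the knockout these medians were -2.24 and 0.21. With library totals in place of TMM, the median of all genes moved to 1.05 and 1.09, and the genes called higher in brain and in liver changed from 8271 and 6538 to 11630 and 3993 in the wild type, and from 8179 and 6611 to 11664 and 3870 in the knockout.

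Gpx1 had the widest tissue difference of the 9 genes. It was 62.5-fold lower in brain than in liver in the wild type (log2 fold change -5.97 ± 0.15, SE, adjusted p = 6.94e-08, edgeR) and 67.6-fold lower in the knockout (-6.08 ± 0.19, SE). Nadk2 was 7.68-fold lower in wild-type brain (-2.94 ± 0.13, SE) and 7.85-fold lower in knockout brain. Idh2 was 6.32-fold and 5.76-fold lower in brain, and Gsr 6.03-fold and 5.84-fold lower, in wild type and knockout. For Nnt the fitted value was 5.20-fold lower in wild-type brain and 3.82-fold lower in knockout brain, given without a test. Txnrd2 was 4.39-fold and 3.72-fold lower in brain, and Prdx3 3.92-fold and 3.86-fold lower. These folds depend on the scaling. With library totals the log2 fold change of brain over liver in wild type and knockout was -5.13 and -5.20 for Gpx1, -2.10 and -2.10 for Nadk2, -1.82 and -1.66 for Idh2, and -1.75 and -1.67 for Gsr. It was -1.55 and -1.06 for Nnt, -1.296 and -1.022 for Txnrd2, and -1.13 and -1.07 for Prdx3.

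Glrx2 was higher in brain. It was 1.90-fold higher in brain in the wild type (0.93 ± 0.26, SE, adjusted p = 0.0121, edgeR) and 1.89-fold higher in the knockout (0.92 ± 0.11, SE, adjusted p = 0.00017, edgeR); with library totals its log2 fold changes were 1.77 and 1.79. Sod2 was close to even: its log2 fold change was -0.37 ± 0.10 (SE, adjusted p = 0.00933, edgeR) in the wild type and -0.41 ± 0.10 (SE, adjusted p = 0.00691, edgeR) in the knockout, but 0.47 in each with library totals, where it was higher in brain. The direction of Sod2 between tissues thus depended on the scaling, while that of the 7 others did not under any scaling tried.

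**Figure D5:**
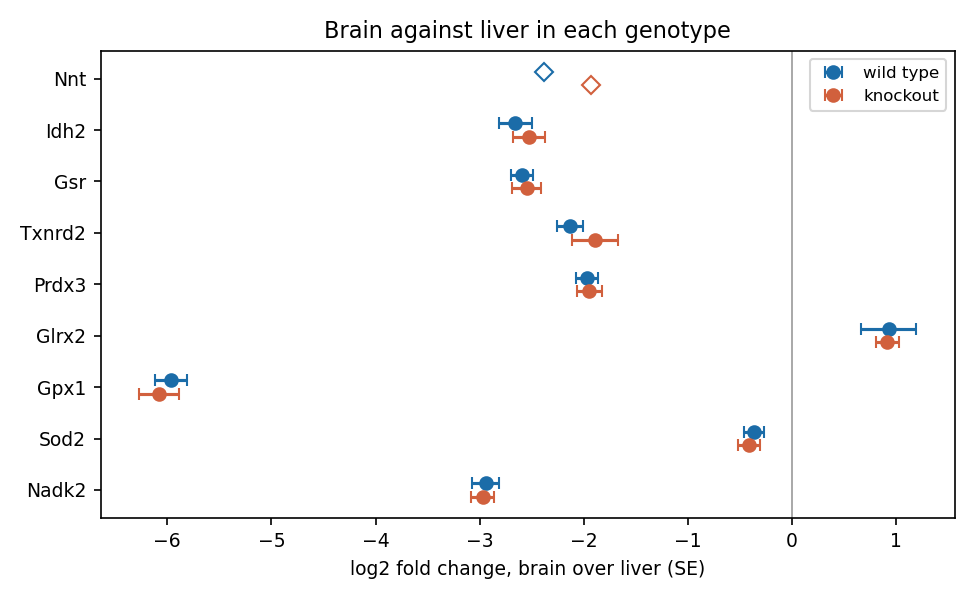
Fitted log2 fold change of brain over liver for each gene in wild type (blue) and knockout (orange), with the standard error of edgeR's fit over 3 and 3 libraries; open diamonds mark Nnt, which is not tested. Gpx1 lies near -6, Glrx2 alone lies above 0 (0.93 and 0.92), and the genotypes lie furthest apart for Nnt (-2.38 in wild type and -1.93 in knockout).

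Levels can be compared between genes only per length, so counts were also divided by the length of each gene's joined exons and scaled to a common total per library (TPM). In brain, Sod2 was the highest of the 9 at 63.0 ± 4.93 TPM (SD, n = 6), followed by Prdx3 (36.7 TPM), Gpx1 (34.7 TPM), Gsr (21.1 TPM), Idh2 (16.3 TPM), Nadk2 (15.2 TPM), Glrx2 (13.97 TPM), Nnt (7.21 TPM) and Txnrd2 (3.81 TPM). The library ranges of neighbours overlapped between Prdx3 and Gpx1 and along the run from Idh2 through Nadk2 and Glrx2 to Nnt. In liver, Gpx1 stood far above the others at 831 ± 66.0 TPM (SD, n = 6). Prdx3 (52.8 TPM), Gsr (46.3 TPM), Nadk2 (43.9 TPM), Idh2 (36.9 TPM), Sod2 (30.6 TPM), Nnt (12.5 TPM) and Txnrd2 (5.81 TPM) followed with overlapping ranges between each pair of neighbours, and Glrx2 was the lowest at 2.74 TPM. Nnt spanned 4.58 to 11.5 TPM in brain and 6.30 to 27.8 TPM in liver. Joined exon length counts unused exons as well, which lowers the TPM of genes with long joined exons such as Sod2 (10008 bases), Glrx2 (8772 bases) and Nnt (7037 bases, beside 3464 in the transcript Nnt-202), and with it their place in the order.

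The wider set of mitochondrial redox genes was read from 3 lists. In the knockout comparisons edgeR called 0 of 7 genes of NADPH supply, 0 of 6 of thioredoxin and peroxide removal and 0 of 7 of glutathione handling in brain, and 0 of 6, 0 of 6 and 0 of 7 in liver, where Aldh1l2 was too low to test; this is the share of all genes tested, of which 0% were called in either tissue. In that order, the lists had medians of log2 fold change of -0.10, -0.06 and -0.10 in brain, and of 0.17, -0.04 and -0.12 in liver, beside -0.01 and 0.00 over all genes tested. Between wild-type brain and liver, 4 genes of the NADPH-supply list were higher in brain, 2 higher in liver and 1 not called (median 1.45), beside 43.9% and 34.7% of all genes tested (median 0.21). The malic enzyme Me3 was higher in brain (6.44 ± 0.17, SE) and the serine hydroxymethyltransferase Shmt2 higher in liver (-4.46 ± 0.16, SE). Of the thioredoxin and peroxide list, 1 was higher in brain and 5 in liver (median -1.04); the oxidation resistance gene Oxr1 was the 1 (1.23 ± 0.15, SE), and the glutaredoxin Glrx5 was among the 5 (-1.99 ± 0.16, SE). Of the glutathione list, 1 was higher in brain and 6 in liver (median -3.70), among them the glutathione transferase Gstk1 (-4.75 ± 0.15, SE), while the carrier Slc25a40 was the 1 (0.74 ± 0.21, SE).

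In the knockout the same lists gave 4 and 2 of 7, 1 and 4 of 6, and 1 and 6 of 7, higher in brain and in liver, beside 43.6% and 35.2% of all genes tested. With library totals, the NADPH-supply list gave 5 and 2 of 7 in the wild type, against 4 and 2 in the knockout. On that scaling 1 gene was higher in brain and 3 of 6 in liver for the thioredoxin list, and 1 and 5 of 7 for the glutathione list, in either genotype. Msrb2 of the first and Slc25a11 of the second then changed sign in both genotypes.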

How the data were processed

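TRIzol-extracted, DNase-treated RNA was depleted of ribosomal RNA, made into stranded libraries by ligation and sequenced from 1 end, per the labels' protocols. Per the submitters' processing notes, cutadapt, STAR and the mm10 build were used; the counting tool is not given in the sources used here. Values are expected counts for each gene in each library, as deposited by the authors, without normalization. Between 5.06% and 5.71% of values per library were not whole, as when reads shared between genes are split.

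All 55450 identifiers matched GENCODE release M21 (GRCm38), which gave coordinates, transcript sequences and selenocysteine codons. Rows were summed by symbol to 55341 genes and rounded. Fits used edgeR 4.0.16 (R 4.3.3): the quasi-likelihood F-test with robust estimation, TMM, genes kept by filterByExpr within group (at least 10 counts, and 15 in total), and Benjamini-Hochberg adjustment over all genes tested at a threshold of 0.05. SE was computed per gene as the unsigned log2 fold change over the square root of F. Each comparison was fitted on its own 6 libraries and the interaction on 12. The scripts were tested on simulated data. A floor of 3 counts lies at 0.162 to 0.202 CPM in brain and 0.110 to 0.129 CPM in liver, for counting error only.

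The members, the gene lists, the rule for the genes named and the tests were chosen with earlier results of these data known. That rule names the members, the 5 genes most like Nnt and the 3 most opposed, genes of the redox lists with the largest tissue difference in each direction, and Vaultrc5. In liver, same-numbered libraries of both genotypes deviated together (correlations of deviations from the group means of 0.34, 0.36 and 0.40). The labels do not say what these numbers mark. The main fits therefore took no pairing, in liver as elsewhere, and the replicate block was fitted as an alternative. Alternatives were DESeq2 1.42.0 size factors, library totals, the DESeq2 Wald test, other filters, the replicate block and each library left out. Fits without wild-type libraries 2 and 3 and with 1 Nnt entry were added after seeing the data.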

Additional observations from a re-analysis of the deposited data

How the results depend on the processing

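The members called did not change under any alternative: 0 of 8 in the knockout comparisons and their difference, and 8 of 8 in both tissue comparisons. The genes called in liver knockout against wild type, 0 as reported, were 10 with DESeq2's Wald test, 4 with no filter beyond 1 count, 2 with the replicate block and 2 without wild-type libraries 2 and 3, a fit whose wild-type arm holds 1 library, left by its Nnt level; leaving out 1 library at a time gave 0 to 1, the 1 without wild-type library 2. For the difference between tissues, 0 as reported, DESeq2's Wald test called 1 and the replicate block 2.

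In brain, same-numbered libraries of both genotypes had correlations of deviations of 0.65, 0.62 and -0.02, and in the tissue comparisons of 0.01 to 0.04. The main fits took no pairing there either. In brain, wild-type libraries 1 and 2 correlated best with the knockout library of their own number, and wild-type library 3 did not. The replicate block called 0 genes in brain, 14492 in wild-type and 14405 in knockout brain against liver, and apart from the liver and difference counts given above it changed no call of a member.

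Some of the members' log2 fold changes changed sign; of these, only that of Sod2 between tissues was called. Without wild-type libraries 2 and 3, Gpx1 became 0.094 and Sod2 0.051 in brain, and -0.035 and -0.055 in liver. In liver, library totals gave -0.040 for Gpx1 and -0.012 for Sod2, and Gpx1 was -0.0052 with no filter and -0.0078 with the replicate block. For the difference, Glrx2 became 0.021 with size factors, 0.021 with the Wald test and 0.017 with the replicate block, and Nadk2 -0.00081 with library totals. Sod2 between tissues became 0.47 in both genotypes with library totals. With 1 library left out, brain values ran from -0.10 to 0.017 (Idh2), -0.089 to 0.12 (Gsr), -0.34 to 0.0071 (Txnrd2), -0.11 to 0.045 (Prdx3), -0.0057 to 0.28 (Glrx2) and -0.066 to 0.017 (Sod2). Liver values ran from -0.050 to 0.019 (Gsr), -0.11 to 0.39 (Glrx2), -0.091 to 0.12 (Gpx1) and -0.0040 to 0.070 (Sod2). The difference ran from -0.13 to 0.068 (Gsr), -0.11 to 0.066 (Prdx3), -0.21 to 0.29 (Glrx2), -0.022 to 0.22 (Gpx1), -0.0070 to 0.13 (Sod2), -0.069 to 0.11 (Nadk2) and, untested, -0.81 to 0.068 (Nnt). The cause was not tested. With 3 libraries a group, differences of the size of these SE values cannot be told from 0.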

Other observations

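Genes of the same pathways outside mitochondria also differed between brain and liver. Of 8 genes of NADPH supply, edgeR called 1 higher in wild-type brain and 7 higher in wild-type liver (median log2 fold change of brain over liver -3.27). Of all genes tested, 43.9% were higher in brain and 34.7% in liver, with a median of 0.21. G6pdx, the entry enzyme of the pentose phosphate pathway, was the 1 (1.90 ± 0.23, SE), and H6pd, its counterpart in the endoplasmic reticulum, was -5.66 ± 0.27 (SE). Of 12 genes of thioredoxin and peroxide removal, 0 were called higher in brain and 10 higher in liver (median -2.74), with catalase (Cat) at -7.22 ± 0.24 (SE). With library totals, 2 of the 12 were called higher in brain and Prdx2, which was not called with TMM, changed sign. Of 6 genes of glutathione synthesis and handling, 1 was higher in brain (Gpx8, 1.37 ± 0.40, SE) and 4 in liver (median -1.73), among them Gclc, which catalyses the limiting step of glutathione synthesis (-3.95 ± 0.12, SE). With library totals, 1 was called higher in brain and 3 in liver, and Glrx, which was called with TMM, and Gpx3, which was not, changed sign.

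In the knockout comparisons 0 of these 26 genes were called in either tissue, as were 0% of all genes tested. In liver, G6pdx was the 1 of 26 with an unadjusted p under 0.05, beside 535 of 15313 genes. It had a log2 fold change of 0.49 ± 0.16 (SE, adjusted p = 0.991, edgeR), and in brain it was at -0.31 ± 0.23 (SE).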
